A study of Macaca mulatta with 6 samples.

Results

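The genes described are 8 markers of macrophages, CD68, CD14, CD163, CSF1R, C1QA, C1QB, FCER1G and TYROBP, measured in the adrenal gland of rhesus macaques at 6 clock times. They are listed by name, and every probe set that the platform annotation pairs with any of them was taken, which gave 10 of the 22215 probe sets that are not controls. CD163 had 3 probe sets and each other gene had 1. The probe set of CD68 also names the small nucleolar RNA SNORA67, so it cannot be assigned to CD68 alone. Of the other 7 genes, CD163, CSF1R, C1QB, FCER1G and TYROBP passed the filter on level and were among the 7164 genes tested. CD14 and C1QA lay below the filter, a mean log2 value of 7.30, and are described from a fit of all 22215 probe sets without it.

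Each of the 6 samples was the left adrenal of 1 ovariectomized female, and all animals lived singly caged in 12 h of light and 12 h of dark and were fasted before collection. The animals taken at 3 AM and 7 AM were both 12 years old. The animal of 11 AM was 10 years and 37 days old, that of 3 PM was 8 years and 106 days, that of 7 PM was 7 years and 82 days and that of 11 PM was 8 years and 70 days. No clock time has a second animal, so age, animal and clock time cannot be told apart. Ovariectomy was common to all 6, and the array carries probes designed for human transcripts, on which macaque RNA may read low. The error of each fit comes from the spread of single animals around a curve, a line or a mean of 3 arrays. Limma draws that spread toward the spread of all genes fitted. The exact tests permute the arrays instead.

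Macrophages are phagocytes that live in most organs, the adrenal included, among the steroid-making cells of the cortex and the chromaffin cells of the medulla. Their survival depends on CSF1R, the receptor for the growth factors CSF1 and IL34. They clear dead cells and immune complexes with the help of complement C1q, whose chains are encoded by C1QA, C1QB and C1QC, and take up haemoglobin through the scavenger receptor CD163, a gene known to be induced by glucocorticoids. FCER1G and TYROBP are small adaptor proteins that carry the signal of receptors with no signalling tail of their own. In whole-gland RNA, fewer macrophages and less RNA per macrophage cannot be told apart.

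All values are intensities on a linear scale, brought to a common level per array by the authors. Median intensity lay between 154.1 and 173.4. The hybridisation controls, transcripts added to each sample, averaged 542 (3 AM) and 669 (3 PM) by geometric mean, and between 948 and 1101 elsewhere. GAPDH probes at the 3' end read 0.721 times those at the 5' end at 7 AM, the lowest such ratio, and 1.16 times at 3 PM, the highest. All 9 adrenal cortex genes with a probe set of their own passed the level filter, as did 6 of 7 chromaffin genes. Among other genes of tissue macrophages 12 of 18 passed, and over all genes with such a probe set 7164 of 11963 did.

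No macrophage marker passed a test after adjustment over all genes, and the markers did not share 1 course over the day. C1QB and the brightest of the 3 CD163 probe sets varied together and averaged more on the arrays of 7 AM, 11 AM and 3 PM than on those of 7 PM, 11 PM and 3 AM. CSF1R had no such difference, and the adaptor genes FCER1G and TYROBP varied less between animals. The 7 AM array held the highest value on 5 of the 10 probe sets and the 7 PM array the lowest on 5. Over all 22215 probe sets, 14.6% were highest at 7 AM and 15.6% lowest at 7 PM. The part of the low GAPDH ratio of the 7 AM array in its high values was not tested.

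**Figure D1:**
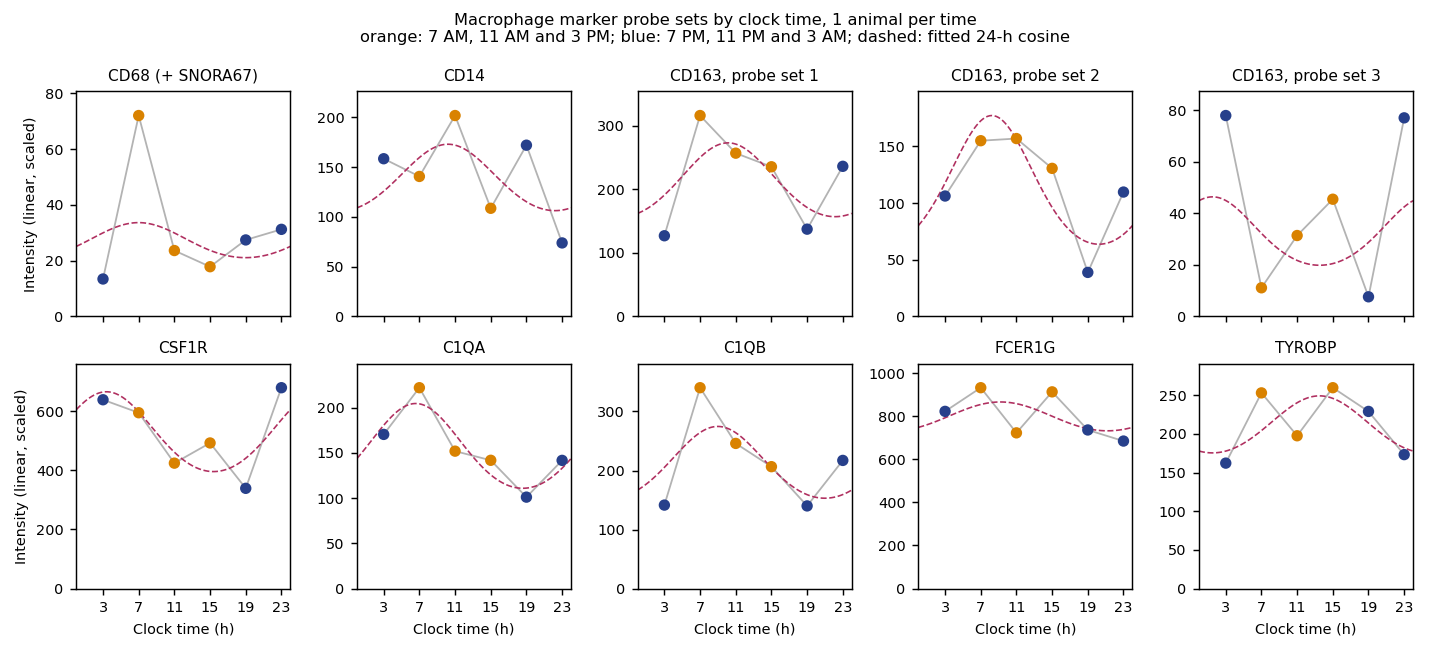
Intensity (linear scale, axis from 0) of the 10 macrophage marker probe sets against clock time in hours, 1 animal per point, with the fitted 24-h cosine dashed. C1QB and CD163 probe set 1 are highest at 7 AM and low at 3 AM and 7 PM, whereas CSF1R is highest at 11 PM and FCER1G stays between 685 and 933.

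C1QB encodes the B chain of C1q, the molecule that starts the classical complement pathway. Its intensity was 141 at 3 AM, 340.3 at 7 AM, 246 at 11 AM, 207 at 3 PM, 140 at 7 PM and 217 at 11 PM. The 7 AM array stood highest and the arrays of 3 AM and 7 PM lay together at the bottom, with the highest value 2.43 times the lowest. The moderated SD around the 24-h curve was 0.36 on the log2 scale. Limma forms it from the gene's own residuals and those of all genes fitted. Of the 5 gaps between clock times next to each other in level, 2 were wider than this moderated SD. The widest, 0.54, parted 3 PM from 3 AM. The fitted curve peaked at 8.98 h, where it was 1.79 times its lowest point (log2 0.84 ± 0.42, SE, 6 arrays; limma's moderated F test, adjusted p = 0.859).

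C1QA encodes the A chain of the same molecule. In the macaque RefSeq annotation (assembly T2T-MMU8v2.0) C1QA, C1QC and C1QB follow one another on the chromosome, with no other annotated gene between them. C1QA had an intensity of 170.3 at 3 AM, 222 at 7 AM, 152 at 11 AM, 142 at 3 PM, 101 at 7 PM and 142 at 11 PM. It was highest at 7 AM and lowest at 7 PM, as C1QB was, but the chains parted at 3 AM. There C1QA lay 0.18 above its own mean on the log2 scale and C1QB lay at -0.53 from its mean. The deviation of C1QB minus that of C1QA was -0.71 at 3 AM and 0.024 to 0.25 on the other 5 arrays. The 3 AM array also had the lowest hybridisation controls, whose part in this was not tested.

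C1QA had the closest fit to the 24-h curve among the 10 probe sets, with an R2 of 0.847. Its curve peaked at 6.59 h, at 1.84 times its lowest point (log2 0.88 ± 0.33, SE; limma without the filter, adjusted p = 0.944). In the exact test over the 60 circular orders of the 6 arrays its p was 0.0333, where the smallest possible is 0.0167, and its p adjusted over all probe sets in that exact test was 0.932. It was the only one of the 10 probe sets with an exact p at or under 0.05, a level that 5.27% of all probe sets reached. Its level also followed age, at a log2 slope of 0.16 ± 0.06 (SE) per year (limma without the filter, adjusted p = 0.932). At an unadjusted p under 0.05 this too was 1 of 10, and 5.20% of all probe sets passed the age test. The slope missed the unadjusted threshold when 7 AM, 11 AM or 7 PM was left out.

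CD163 encodes the receptor that takes up haemoglobin bound to haptoglobin. On its brightest probe set, the first, the intensity was 127 at 3 AM, 316 at 7 AM, 257 at 11 AM, 236 at 3 PM, 137 at 7 PM and 236 at 11 PM. Here too 7 AM was highest and 3 AM and 7 PM were lowest. The widest gap between neighbours in level, 0.77 on the log2 scale, parted 3 PM from 7 PM, against a moderated SD of 0.41. The fitted curve peaked at 10.1 h, at 1.74 times its lowest point (log2 0.80 ± 0.47, SE, 6 arrays; limma, adjusted p = 0.873).

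The other probe sets of CD163 lay below the level filter. On the second the intensity was 106 at 3 AM, 155 at 7 AM, 157 at 11 AM, 131 at 3 PM, 38.8 at 7 PM and 109.7 at 11 PM. All of its 3 day arrays (7 AM, 11 AM, 3 PM) lay above all 3 of night (7 PM, 11 PM, 3 AM), on 1 of 10 member probe sets and on 5.54% of all probe sets. It shared the low value at 7 PM with the first probe set but not that at 3 AM, where it lay close to its own mean (log2 deviation -0.0021, against -0.70 on the first). The third was dim and ran another way, with 78 at 3 AM, 11.1 at 7 AM, 31.4 at 11 AM, 45.5 at 3 PM, 7.6 at 7 PM and 77.1 at 11 PM. The probe sets of CD163 thus shared a low value at 7 PM and disagreed at 3 AM and 7 AM.

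**Figure D2:**
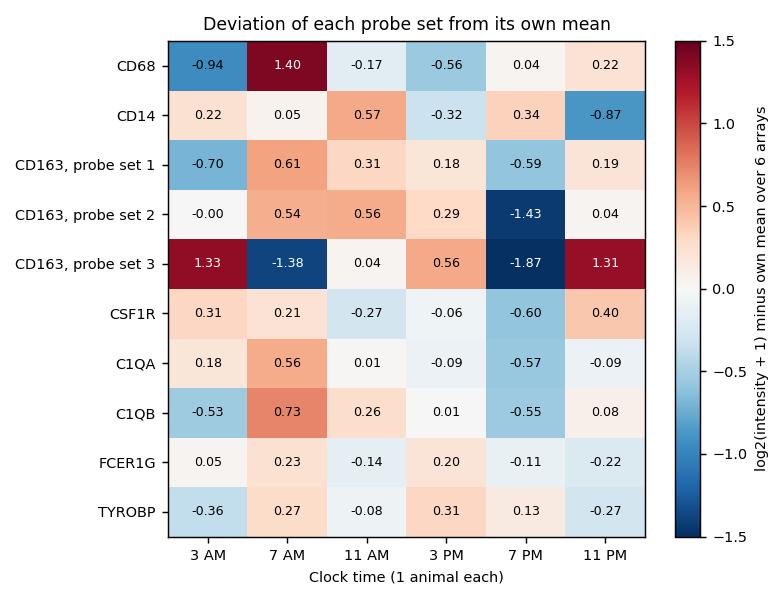
Deviation of each of the 10 probe sets from its own mean over the 6 arrays, in log2(intensity + 1), with clock time across and 1 animal per column. Red is above and blue below the mean: at 7 AM all probe sets but CD163 probe set 3 are above their mean, and at 3 AM CD163 probe set 1 reads -0.70 while CD163 probe set 2 lies near 0.

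C1QB and the first CD163 probe set gave nearly the same profile over the animals. Pearson's r over the 6 arrays was 0.97 (exact permutation p = 0.00417) and Spearman's rho 0.94 (exact permutation p = 0.0167). With the other CD163 probe sets the r of C1QB was 0.74 for the second and -0.17 for the third, which was dim. The likeness was thus closest with the first. Without the 2 arrays farthest from the median of the first, 3 AM and 7 PM, r was 0.996. Of the 10 pairs among the 5 tested genes this pair alone had an exact permutation p for r that passed after adjustment over the 10 pairs (0.0417), and the adjusted exact p for rho was 0.167. Over all pairs of tested genes 0.0889% had an r at least as high, and 3.09% had an r of 0.8 or more. The remaining 9 pairs of markers had r between -0.44, for CSF1R with TYROBP, and 0.62, for FCER1G with TYROBP, and 0 of 9 passed.

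**Figure D3:**
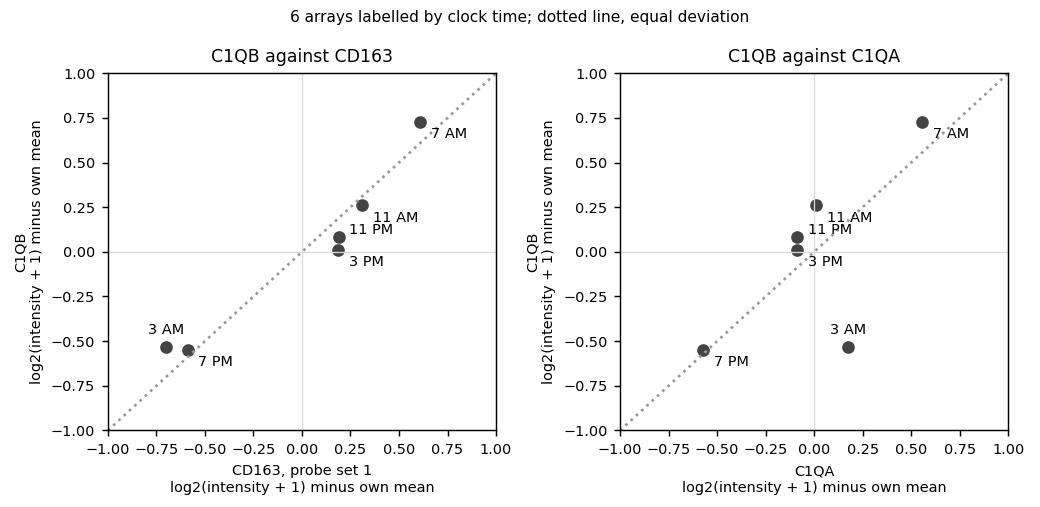
C1QB against CD163 probe set 1 (left) and against C1QA (right), each as the deviation of log2(intensity + 1) from its own mean, with 1 point per array and a dotted line of equal deviation. The points follow the line for CD163, while against C1QA the 3 AM array lies apart, at 0.18 for C1QA and -0.53 for C1QB.

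CSF1R encodes the receptor tyrosine kinase that macrophages need for survival. Its intensity was 639 at 3 AM, 595 at 7 AM, 424 at 11 AM, 493 at 3 PM, 339 at 7 PM and 679.6 at 11 PM. The arrays of 11 PM, 3 AM and 7 AM were the 3 highest and 7 PM was the lowest. The only gap between neighbours wider than the moderated SD of 0.30 was 0.32, between 11 AM and 7 PM. The fitted peak lay at 3.39 h, at 1.68 times the lowest point (log2 0.75 ± 0.34, SE, 6 arrays; limma, adjusted p = 0.849).

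CD14 encodes the coreceptor through which bacterial lipopolysaccharide reaches TLR4. Its intensity was 158 at 3 AM, 141 at 7 AM, 202 at 11 AM, 109 at 3 PM, 172 at 7 PM and 73.8 at 11 PM. It was highest at 11 AM, and 11 PM lay lowest by a gap of 0.55 on the log2 scale, against a moderated SD of 0.49. Its 24-h curve had a log2 difference of 0.70 ± 0.57 (SE; limma without the filter, adjusted p = 0.958), which was 0.15 without 11 PM and 1.34 without 7 PM.

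FCER1G encodes the common gamma chain of Fc receptors and TYROBP the adaptor DAP12, which partners TREM2. Both carry the tyrosine-based activation motif that recruits the kinase SYK. FCER1G had an intensity of 823 at 3 AM, 933 at 7 AM, 723 at 11 AM, 914 at 3 PM, 737 at 7 PM and 685 at 11 PM. TYROBP had 162 at 3 AM, 253 at 7 AM, 198 at 11 AM, 259.9 at 3 PM, 229 at 7 PM and 173 at 11 PM. Both had their 2 highest values at 7 AM and 3 PM. No gap between neighbouring levels was wider than the moderated SD of 0.25 for FCER1G or 0.27 for TYROBP. The highest value was 1.36 times the lowest for FCER1G and 1.60 times for TYROBP, against a median of 1.69 over all genes tested. The curve of FCER1G had a log2 difference of 0.24 ± 0.29 (SE; limma, adjusted p = 0.959), and that of TYROBP 0.50 ± 0.31 (SE; limma, adjusted p = 0.884).

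CD68 encodes a glycoprotein of the lysosomal membrane that is widely used to stain macrophages. The probe set that names CD68 and SNORA67 was dim, with 13.4 at 3 AM, 72 at 7 AM, 23.6 at 11 AM, 17.8 at 3 PM, 27.4 at 7 PM and 31.2 at 11 PM. The 7 AM array alone stood apart, by a gap of 1.18 on the log2 scale from the next one, against a moderated SD of 0.77. Its 24-h curve had a log2 difference of 0.65 ± 0.89 (SE; limma without the filter, adjusted p = 0.982), which was 1.88 without 3 AM, and its peak of 6.99 h lay at 19.01 h without 7 AM.

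Of the 5 tested genes, 0 had an unadjusted p under 0.05 for the 24-h curve, where 5.56% of all genes did, and 0 had an exact order p at or under 0.05, where 5.57% did. Without the level filter 0 of 10 probe sets passed the curve test, as 5.14% of all did. Among the 5 tested genes the p values of the exact order test ran from 0.3 for CSF1R to 0.6 for FCER1G. The median log2 peak-to-trough difference was 0.75 for the 5 markers and 0.43 over all genes. Leaving out single arrays moved the curves. For C1QB the log2 difference of 0.84 was 0.48 without the 7 AM array and 1.38 without 11 PM. For CD163 it was 0.59 without 7 AM and 1.55 without 11 PM, against 0.80. Without 11 PM both had an unadjusted p under 0.05 by limma, as C1QB did without 3 AM (log2 1.10). CSF1R had 1.17 without 3 PM and TYROBP 0.83 without 11 AM, and FCER1G ran from 0.13 without 11 PM to 0.56 without 11 AM. With age as a covariate the log2 differences were wider and their errors too: 4.09 ± 1.59 for CD163, 3.76 ± 1.48 for C1QB, 1.06 ± 1.39 for CSF1R, 0.61 ± 0.93 for TYROBP and 0.94 ± 1.22 for FCER1G (SE), and 0 of 5 had an unadjusted p under 0.05 by limma. The peak of FCER1G then lay at 17.5 h, against 9.20 h without the covariate.

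Between day and night, which are clock labels here since the time of lights-on is unknown, CD163 and C1QB had the widest differences among the tested markers. CD163 averaged 269.7 ± 41.8 by day and 167 ± 60.4 by night (SD, 3 arrays each), a fold change of 1.66 on the log2(intensity + 1) scale (log2 0.73 ± 0.27, SE; limma, adjusted p = 0.809). C1QB averaged 264 ± 68.8 by day and 166 ± 44.1 by night, a fold change of 1.59 (log2 0.67 ± 0.26, SE; limma, adjusted p = 0.828). The groups overlapped at 11 PM: the lowest day value of CD163 was 236 at 3 PM, against 236 at 11 PM, and that of C1QB was 207, against 217. On 0 of 5 tested markers did all day arrays lie above all night arrays, as they did on 5.61% of all genes.

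At an unadjusted p under 0.05, CD163 and C1QB, 2 of the 5 tested markers, were higher by day, as 2.95% of all genes were. Without the level filter 1 of 10 probe sets passed, the first of CD163, as 5.03% of all did. CD163 missed the unadjusted threshold when 3 AM, 7 AM or 7 PM was left out, and C1QB when 3 AM, 7 AM, 11 AM or 7 PM was. Neither passed it in the ordinary least-squares fit without moderation.

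The other tested markers did not pass the unadjusted threshold. TYROBP averaged 237 ± 34.1 by day and 188 ± 35.9 by night (log2 0.34 ± 0.22, SE), and FCER1G 856 ± 116 by day and 748 ± 69.7 by night (log2 0.19 ± 0.19, SE). CSF1R averaged 504 ± 85.9 by day and 552.5 ± 186 by night (log2 -0.081 ± 0.29, SE), with night values between 339 and 679.6. Below the filter, C1QA averaged 172 ± 43.7 by day and 138 ± 34.8 by night (log2 0.32 ± 0.30, SE), a difference that was 0.12 without 7 PM and 0.49 without 3 AM. The second CD163 probe set had the widest difference of the 10, 147.5 ± 14.7 by day and 84.9 ± 40.0 by night (log2 0.93 ± 0.43, SE), which was 0.44 without 7 PM. The third was lower by day, with 29.3 ± 17.3 by day and 54.2 ± 40.4 by night (log2 -0.51 ± 0.96, SE), and the CD68 probe set had 37.8 ± 29.8 by day and 24 ± 9.37 by night (log2 0.45 ± 0.58, SE). CD14 averaged 150.3 ± 47.4 by day and 135 ± 53.2 by night (log2 0.20 ± 0.41, SE). Day exceeded night on the log2 scale for 4 of 5 tested markers, with a median difference of 0.34, and for 49.1% of all genes, with a median of -0.0043.

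**Figure D4:**
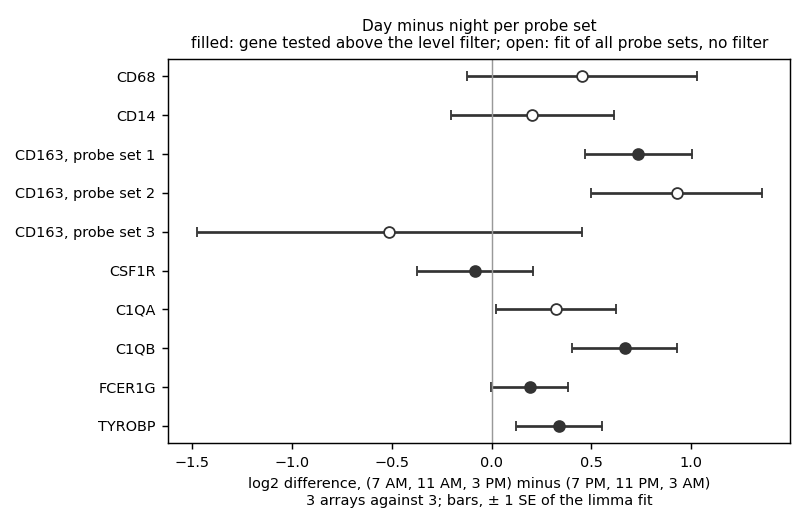
Difference in mean log2(intensity + 1) between the 3 day arrays (7 AM, 11 AM, 3 PM) and the 3 night arrays (7 PM, 11 PM, 3 AM) for each probe set, with bars of 1 SE of the limma fit. Filled points are genes above the level filter and open points come from the fit of all probe sets: CD163 probe set 1 (0.73) and C1QB (0.67) lie to the right, and CSF1R (-0.081) lies near 0.

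Other cell types were set beside the markers over the same arrays. Counts in this and later lists stand beside all genes tested, of which 49.1% were higher by day. At an unadjusted p under 0.05, 2.95% of all genes were higher by day and 5.56% passed the 24-h test. All 6 tested chromaffin genes were higher by day, 3 of them at the unadjusted threshold, with summed intensities of 21416 to 35146 by day and 13944 to 21234 by night over the 7 measured. Their mean profile lay on the same side of its mean as CD163 and C1QB at 3 AM, 7 AM, 11 AM and 3 PM. It read -0.68 at 3 AM and 0.57 at 7 AM on the log2 scale, against -0.70 and 0.61 for CD163. For C1QB these values were -0.53 and 0.73. The chromaffin profile parted from both at 7 PM and, in the other direction, at 11 PM. At 7 PM it lay at -0.055 on the log2 scale, against -0.59 for CD163 and -0.55 for C1QB. At 11 PM it lay at -0.38, against 0.19 for CD163 and 0.082 for C1QB. Of 9 adrenal cortex genes 0 were higher by day, with sums of 60066 to 63767 by day and 55346 to 83337 by night. Mast cells also express FCER1G, and NK cells TYROBP. Of 3 tested mast cell markers 1 was higher by day, KIT (log2 1.27), and the others were lower. Sums over the 6 measured were 1261 to 1591 by day and 961 to 1182 by night. KIT alone held 1153 of the 1591 at 7 AM and 298 of the 1182 at 3 AM. Of 4 tested T and NK cell markers 3 were higher by day, all of them T cell genes. Sums over the 13 measured were 1742 to 2146 by day and 1457 to 1747 by night. Among the NK cell genes of that list KLRD1 averaged 231 over the 6 arrays and passed the level filter. KLRD1 was lower by day (log2 -0.14) and highest at 3 AM, where TYROBP was lowest. PRF1 reached 198.5, GNLY 146, GZMB 70.5 and NKG7 5.9 at most. The parts of these cells in the marker values were not tested.

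The arrays of 7 AM and 3 AM come from animals of the same labelled age, and those of 3 PM and 11 PM from animals of nearly the same age. For 7 AM minus 3 AM the log2 difference was 1.26 for C1QB, which 1.80% of tested genes reached. For CD163 it was 1.31 on the first probe set, which 1.55% reached, 0.54 on the second and -2.71 on the third, so its sign was not shared. The dim probe set naming CD68 and SNORA67 had the largest rise, 2.34, which 0.17% reached. For TYROBP the difference was 0.64, for C1QA 0.38, for FCER1G 0.18, for CSF1R -0.10 and for CD14 -0.17. For 3 PM minus 11 PM the first CD163 probe set and C1QB lay near 0, at -0.0043 and -0.072, while CSF1R had -0.46, FCER1G 0.41 and TYROBP 0.58. The probe set naming CD68 had -0.78. These are differences between single animals and have no error. Across all 6 arrays 0 of 5 tested markers had an unadjusted p under 0.05 for a line on age, where 6.17% of all genes did. The slopes ran from -0.028 per year for TYROBP to 0.097 per year for CSF1R on the log2 scale.

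Further genes of macrophages were measured. Of 12 tested tissue macrophage genes, 4 were higher by day, 0 passed the unadjusted threshold in either direction, and their median log2 difference was -0.045. The smallest 24-h p values there belonged to MERTK, a receptor for dead cells, with a curve 1.72 times its lowest point at a peak of 2.17 h (limma, adjusted p = 0.836), and GPNMB, a transmembrane glycoprotein gene, at 1.64 times and 19.2 h. Of 4 tested genes of monocytes and neutrophils 2 were higher by day, the lysozyme gene LYZ with a log2 difference of 0.74 (limma, adjusted p = 0.766) and the chemokine receptor gene CCR2 with 0.45. Of 11 tested leukocyte genes 5 were higher by day. The integrin gene ITGB2 alone among these had an unadjusted 24-h p under 0.05, with a peak at 20.1 h, and LAPTM5, a lysosomal protein gene of blood cells, peaked at 6.65 h.

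A further list held genes for receptors and signalling enzymes, phosphatases included, around the activation motif. Of its 7 tested genes 6 were higher by day, where 49.1% of all genes were. Their median log2 difference over the 7 was 0.37, and 0 passed the unadjusted threshold. TREM2, a lipid receptor that signals through TYROBP, had 299 at 3 AM and 61.1 at 7 PM, its highest and lowest values, and a fitted curve 2.96 times its lowest point at 6.17 h (limma, adjusted p = 0.836). INPP5D, a phosphatase that opposes such signals, peaked at 12.0 h, at 1.66 times. Of 6 tested genes for a ligand of CSF1R, myeloid transcription factors and the receptor subunit CSF2RB, 1 was higher by day. That gene was CSF2RB, with a log2 difference of 0.16. FLI1 peaked at 23.6 h (2.33 times; limma, adjusted p = 0.836), and CEBPA, a factor of myeloid and fat cells, had a log2 day minus night difference of -1.09 (limma, adjusted p = 0.759).

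Genes that work with C1q, CD14, CD163 and CD68 were measured as well. Of 15 tested complement genes, 7 were higher by day and 2 had an unadjusted 24-h p under 0.05, where 5.56% of all genes did. They were SERPING1, the inhibitor of C1, with a curve 2.27 times its lowest point at 3.81 h, and CFB, of the alternative pathway, at 2.06 times and 7.42 h. Of 6 tested genes around the lipopolysaccharide receptor 1 was higher by day, TLR2, with a log2 difference of 1.52 ± 0.59 (SE; limma, adjusted p = 0.828). TLR4 peaked at 17.1 h, at 1.68 times, and CD36, a fatty acid receptor also found on fat and endothelial cells, had a log2 difference of -1.07 (limma, adjusted p = 0.766). Of 8 tested genes of haem and haemoglobin handling 4 were higher by day, while HPX, which binds free haem, had -0.55 and BLVRB, which reduces biliverdin, -0.54. Of 14 tested lysosomal genes 6 were higher by day and 0 passed the unadjusted threshold in either direction. SCARB2 (1.95 times, 6.71 h) and CTSA (1.57 times, 20.6 h) had the smallest 24-h p values there.

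**Figure D5:**
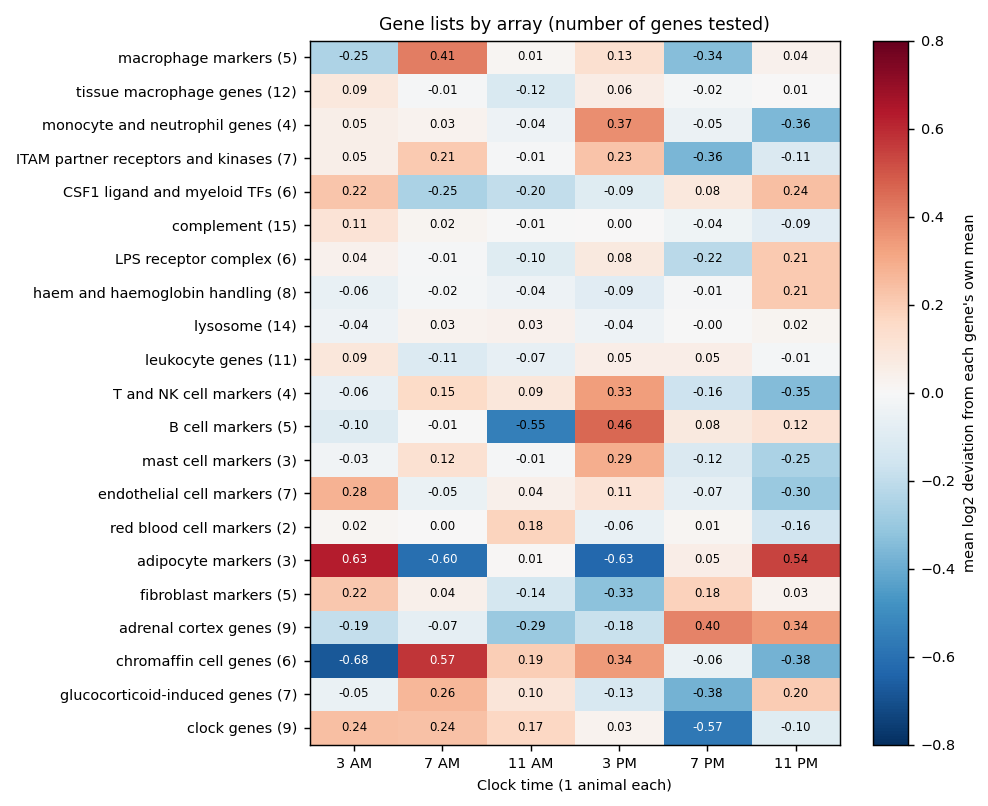
Mean deviation of the tested genes of each list from their own means, in log2(intensity + 1), by clock time with 1 animal per column and the number of genes in brackets. The macrophage markers read 0.41 at 7 AM and -0.34 at 7 PM, the chromaffin genes 0.57 at 7 AM and -0.68 at 3 AM, and the tissue macrophage genes stay between -0.12 and 0.086.

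In the lists of other cells, log2 day minus night differences were 0.84 for CD2 and 0.45 for CD3D among T cell markers, and -0.23 for TPSAB1 among mast cell markers. Higher by day were 1 of 5 B cell markers (BLK at 1.28, with CD22 at -0.48), 3 of 7 endothelial genes (TEK at 0.33, ENG at -0.33), 1 of 2 red blood cell genes (AHSP at 0.19, HBB at -0.021), 0 of 3 adipocyte genes (LPL at -1.04, FABP4 at -0.93) and 1 of 5 fibroblast genes (COL3A1 at -0.78, PDGFRA at -0.25). Among cortex genes SULT2A1 had -0.73 and MC2R -1.08, and among chromaffin genes PNMT had 1.10 and SLC18A1 0.59. Of 7 tested genes known to be induced by glucocorticoids 5 were higher by day, where 49.1% of all genes were. An unadjusted 24-h p under 0.05 by limma was reached by 2 of 7, where 5.56% of all genes did. They were NFKBIA with a peak at 5.24 h and GLUL at 1.32 h. Their log2 day minus night differences were 0.048 for NFKBIA and -0.46 for GLUL. All 9 clock genes listed had an unadjusted 24-h p under 0.05 by limma, where 5.56% of all genes did. That list was chosen with earlier results of these data known, so its count is only a description. PER2 peaked at 8.47 h and NPAS2 at 20.0 h.

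The mean standardized profile of the 5 tested markers was highest at 7 AM, where 5 of 5 lay above their own means, and lowest at 7 PM, where 1 did. The genes most like it by Pearson's r over the 6 arrays, given as a description, were NSA2, a ribosome assembly factor gene (0.99), DRG1 (0.98), ZFAND5 (0.98), ST13, which encodes a cochaperone of HSP70 (0.97), and MAGEL2 (0.97), each with a Spearman's rho of 0.94. Nearest to single markers were LSM14A for CD163 (0.99), BAG3 for C1QB (0.99), TRAM1 for CSF1R (0.99), NUP153 for FCER1G (0.99) and XIST for TYROBP (0.98). Of the 7164 genes 222, or 3.10%, had an r of 0.8 or more with the mean profile, and 0 of 12 tissue macrophage genes did. The 6 tested chromaffin genes had a median r of 0.71 with the mean profile, against -0.039 over all genes, and 0 of 6 reached 0.8.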

How the data were processed

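The deposited table gives 1 intensity per probe set and array, which the authors had scaled: the trimmed mean of every array lies between 325.04 and 325.09. The sources used here do not name the summary software. Of 22283 probe sets, 68 control ones were set aside, and 19065 of the rest name a single gene. Values were taken as log2(intensity + 1). The brightest single-gene probe set stood for its gene and was tested if its mean reached the median probe set's. Limma 3.58.1 in R 4.3.3 fitted the whole table with a 24-h cosine (3 residual degrees of freedom, prior 4.60), day minus night and a line on age, and p values were adjusted by Benjamini-Hochberg across genes. The exact order test compared R2 over 60 circular orders. Pairs of markers were tested over 720 permutations. An exact test of 3 arrays against 3 cannot go below 0.1. The code was tested on simulated data.

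Members and lists were chosen with earlier results of these data known. Besides members, the genes named are the 2 with the smallest 24-h p in each list, the 5 most like the members' mean and the nearest to each member. TLR2, CSF2RB and the NK cell genes were named after their values were seen. Alternatives changed the level filter, the scaling (quantile or median), the pseudocount (16), the probe sets used, the prior, the test, the covariate (age) and the arrays included. The unfiltered fit of every probe set was chosen after seeing the data. The number of arrays limits the precision.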

Additional observations from a re-analysis of the deposited data

How the results depend on the processing

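Counts of genes at an unadjusted p under 0.05 followed the number of genes tested. The 24-h count of 398 became 621 without the level filter, 244 under a stricter one, 604 when each probe set was tested and 1141 when each was tested unfiltered. The day and night count of 386 became 605, 256, 614 and 1117 in the same order. The age count of 442 became 237 under the stricter filter and 665 and 1155 over probe sets. The exact order count of 399 became 651 without the filter, 219 under the stricter one and 617 over probe sets. Leaving out single arrays gave counts from 362 to 536 for the cosine, 350 to 439 for day and night and 372 to 569 for age. After adjustment 1 gene, PER2, passed the cosine under the stricter filter, and 1, IRGQ, passed day and night without the 11 PM array. Adjusted counts without single arrays ran from 0 to 1 for day and night and were 0 for the cosine and for age.

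Of 137 day minus night differences of markers under the alternatives, 112 kept their sign and side of the unadjusted threshold, 14 lost the call, 2 gained it and 9 changed sign. Of 127 age slopes 113 kept both, 4 lost the call, 3 gained it and 7 changed sign. Every change of sign came with 1 array left out. The height of a 24-h curve has no sign: of 137 heights 133 kept their side of the threshold and 4 gained the call, but 26 moved by over 1.5 times and in 13 the peak moved by over 3 h. With age as a covariate the log2 height was 5.82 for the CD68 probe set, 1.64 for CD14 and 3.07 for the second CD163 probe set. Without single arrays the log2 day minus night difference ran from -0.40 to 0.10 for CSF1R (0.056 without 3 AM, 0.036 without 11 AM), -0.18 to 0.42 for CD14 (-0.031 without 11 AM) and -0.13 to 0.84 for the probe set naming CD68. For the third CD163 probe set it ran from -1.58 to 0.047, with 0.022 without 3 AM and 0.014 without 11 PM. The log2 slope per year ran from -0.063 to 0.20 for CD163 (-0.062 without 7 PM), -0.021 to 0.23 for C1QB, -0.095 to 0.030 for TYROBP, -0.18 to 0.28 for the CD68 probe set and -0.26 to 0.39 for the third CD163 probe set (-0.14 without 3 AM). C1QB day minus night was 0.64 after quantile or median scaling and 0.63 with age as a covariate, with unadjusted p just over the threshold. Beyond fewer genes or arrays, the cause was not tested. No paired analysis was possible because the clock times share no replicate animals. The table gives no background signal, so only the level filter limits dim probe sets.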
